A study of Mus musculus with 24 samples.

Results

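The 10 genes described here encode transporters that sit in the membranes of brain endothelial cells and make up the transport side of the blood-brain barrier: Slco1a4, Slco1c1, Slc22a8, Abcb1a, Abcg2, Slc2a1, Slc16a1, Slc7a5, Slc38a5 and Mfsd2a. They were chosen by gene name, as 10 of the 43346 genes of the deposited count table. All 10 passed the filter on low counts, which kept 21891 genes for testing. RNA of the cerebral cortex was sequenced from 24 mice, 1 library per mouse, in 4 groups of 6. The groups were mice labelled Abca7 given LPS (54 to 56 days old), control mice given LPS (54 to 56 days old), unstimulated mice labelled Abca7 (55 to 58 days old) and unstimulated control mice (55 to 57 days old). LPS (lipopolysaccharide) comes from the envelope of Gram-negative bacteria and sets off an innate immune response through Toll-like receptor signalling. By the series text, the Abca7 label stands for heterozygous mice; Abca7 is a gene for a lipid transporter of the ABC family. LPS was injected. None of the sources used here names the strain, how the allele was made, or the dose, route and timing of the injection.

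Endothelial cells of brain vessels are joined by tight junctions and perform little vesicular uptake, so most solutes enter or leave the brain through membrane carriers. Carriers of the solute carrier class bring in glucose, amino acids, lactate, thyroid hormone and lipids, while ATP-driven pumps of the ABC class return drugs and other lipophilic compounds to the blood. Several of these genes are active in other brain cells too: Slc2a1 in astrocytes and choroid plexus epithelium, Slc16a1 in oligodendrocytes and astrocytes, Slco1c1 in astrocytes and choroid plexus, and Slc22a8 in choroid plexus and meninges.

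Under LPS, most of the 10 transporter genes had lower mRNA levels in the cortex, with both genotype labels. In mice labelled Abca7, 7 of the 10 fell and 0 rose (edgeR quasi-likelihood test, Benjamini-Hochberg adjusted p under 0.05 over all genes tested), against 5.18% of all tested genes that fell and 6.65% that rose. At an unadjusted p under 0.05, 8 members were lower and 0 higher there, against 10.9% and 12.5% of all tested genes, and DESeq2 called 7 lower and 0 higher, against 5.53% and 6.17%. In control mice, 8 of the 10 fell and 1, Mfsd2a, rose, against 7.92% and 9.39% of all tested genes. The steepest fall was that of Slco1a4, a carrier of organic anions, whose level was 3.68-fold lower with the Abca7 label and 4.7-fold lower in controls. Slc16a1, the lactate carrier, passed the threshold in neither. The median log2 fold change over the 10 genes was -0.64 in mice labelled Abca7 and -0.74 in control mice, while the median over all tested genes was 0.01 in each. In a whole-tissue sample such as this, fewer endothelial cells and less RNA per endothelial cell cannot be told apart.

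The libraries held between 48149131 and 75741388 counts, and LPS and unstimulated totals differed by less than their spread (exact permutation p = 0.496 with the Abca7 label and 0.617 in controls, n = 6 per group, two-sided). Neuron markers summed to between 8580 and 9780 CPM (reads of a gene relative to the library total, adjusted with TMM factors) in every library, and the 20 endothelial markers other than transporters to between 368 and 512 CPM. Abca7 itself, which the genotype label names, was not lower in the labelled mice: its level was 25.2 to 31.5 CPM in LPS mice labelled Abca7 against 20.6 to 27.1 CPM in LPS controls, and 29.9 to 34.8 CPM in unstimulated mice labelled Abca7 against 26.6 to 32.2 CPM in unstimulated controls. On the log2 scale the labelled mice were higher by an exact permutation test (p = 0.00866 under LPS and 0.0238 without, n = 6 per group), so the label is used here as a label only. The 5 LPS response genes Lcn2, Cxcl10, Saa3, Ccl2 and Icam1 rose with both labels. One library stood apart: in replicate 4 of the LPS mice labelled Abca7, the mean log2 CPM of these 5 genes was 2.80, against 4.96 to 5.77 in the other 5 LPS libraries with that label and -2.17 to -0.46 in the unstimulated ones. A second departure lay in the unstimulated controls, where the choroid plexus marker Ttr, which codes for the thyroid hormone carrier transthyretin, was at 4.94 to 19.7 CPM in 5 libraries and at 261 CPM in the other one. With the Abca7 label, Ttr was at 24.3 CPM in LPS replicate 6 and at 230 to 381 CPM in the other LPS libraries. In unstimulated mice with that label it was at 48.0 CPM in replicate 1 and at 177 to 449 CPM in the others. The 4 groups share no sample, and nothing in the labels ties animals across them.

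Start-site sequences are shown for the member that fell most, Slco1a4, for the organic anion transporter Slc22a8, and for the pair that did not fall, Mfsd2a and Slc16a1, because they differ visibly in the number of CG dinucleotides. Each is the window from 250 bases before to 50 bases after the annotated start, 300 bases in all, 5′ to 3′ on the strand of the gene, from RefSeq on build GRCm38.p6, and the capitals mark CG dinucleotides. The windows are chr6:141856171-141856470 on the minus strand for Slco1a4, chr19:8592932-8593231 on the plus strand for Slc22a8, chr4:122961139-122961438 on the minus strand for Mfsd2a and chr3:104638414-104638713 on the plus strand for Slc16a1.
Slco1a4: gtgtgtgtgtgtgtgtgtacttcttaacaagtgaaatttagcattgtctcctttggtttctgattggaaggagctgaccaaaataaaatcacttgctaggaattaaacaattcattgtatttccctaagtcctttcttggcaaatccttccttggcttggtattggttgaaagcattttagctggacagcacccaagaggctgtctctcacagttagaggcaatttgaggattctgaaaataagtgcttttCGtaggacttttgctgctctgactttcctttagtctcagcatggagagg
Slc22a8: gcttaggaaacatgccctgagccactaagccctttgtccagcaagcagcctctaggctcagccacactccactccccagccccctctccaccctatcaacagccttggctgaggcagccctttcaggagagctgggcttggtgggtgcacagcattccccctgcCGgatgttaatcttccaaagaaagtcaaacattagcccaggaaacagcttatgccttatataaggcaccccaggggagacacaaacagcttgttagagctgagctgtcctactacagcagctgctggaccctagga
Mfsd2a: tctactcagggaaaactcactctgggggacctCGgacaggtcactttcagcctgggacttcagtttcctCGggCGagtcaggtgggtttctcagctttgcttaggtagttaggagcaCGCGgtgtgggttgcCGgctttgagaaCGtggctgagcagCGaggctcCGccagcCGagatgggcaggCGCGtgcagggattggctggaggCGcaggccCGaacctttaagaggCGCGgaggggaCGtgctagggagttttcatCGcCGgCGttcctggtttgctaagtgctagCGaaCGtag
Slc16a1: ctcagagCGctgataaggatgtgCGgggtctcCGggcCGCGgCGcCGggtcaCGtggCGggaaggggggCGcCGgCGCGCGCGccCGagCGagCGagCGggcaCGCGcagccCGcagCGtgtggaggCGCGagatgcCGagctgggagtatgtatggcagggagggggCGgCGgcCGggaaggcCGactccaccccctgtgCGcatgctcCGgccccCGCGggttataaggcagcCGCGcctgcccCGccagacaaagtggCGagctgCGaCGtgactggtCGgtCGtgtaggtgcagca

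**Figure D1:**
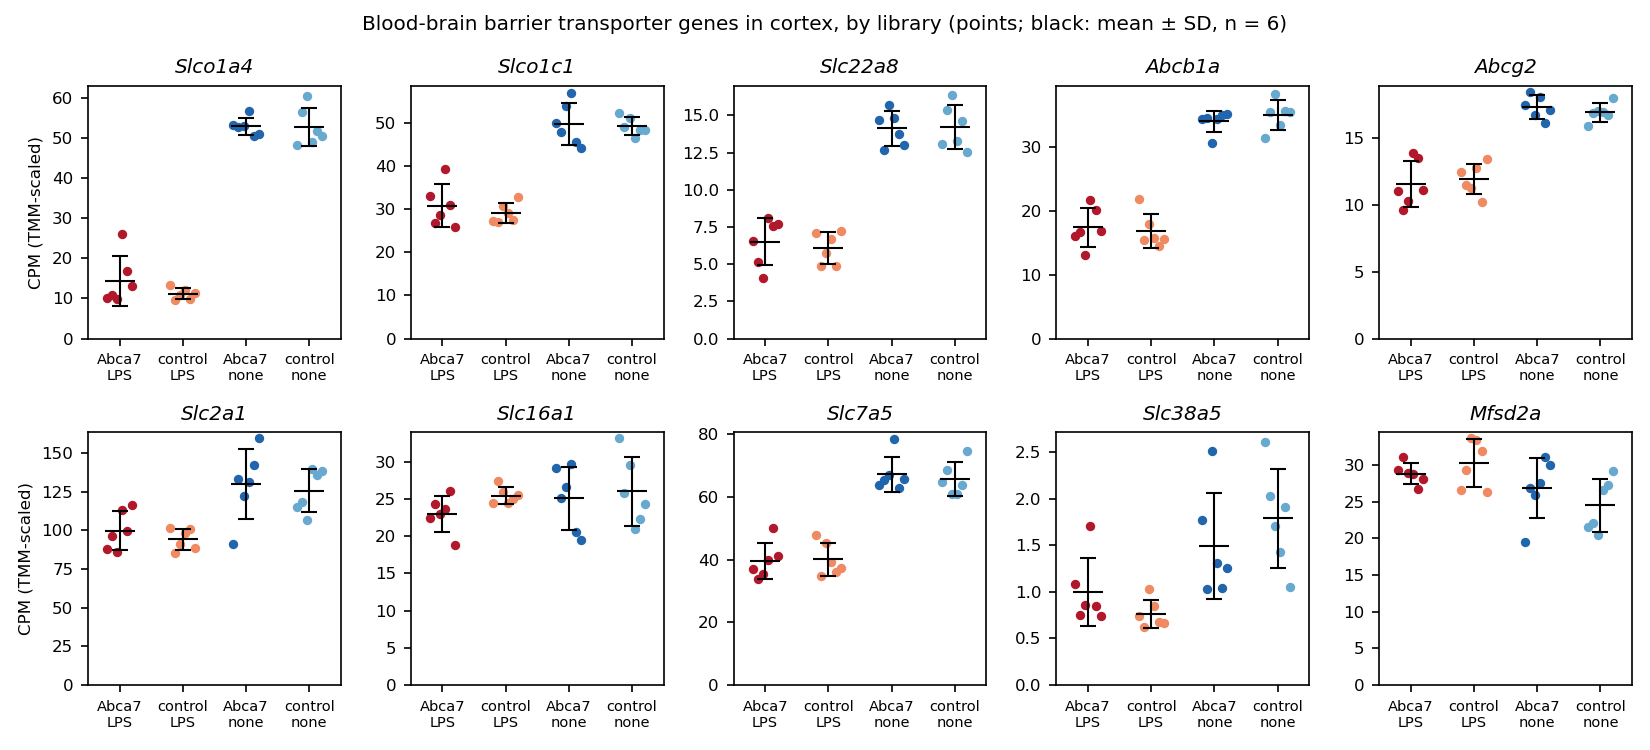
Level of each of the 10 transporter genes in CPM (TMM-scaled, linear axes from 0) in each library, with groups from left to right LPS mice labelled Abca7, LPS controls, unstimulated mice labelled Abca7 and unstimulated controls; points are libraries, and black bars are the mean and SD of 6. In the panels of Slco1a4, Slco1c1, Slc22a8, Abcb1a, Abcg2 and Slc7a5 every LPS library lies below every unstimulated one, while Slc16a1 and Mfsd2a overlap throughout.

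The organic anion and thyroid hormone carriers all fell with both labels. Slco1a4 (chr6:141805440-141856199, minus strand, mm10) encodes Oatp1a4, which carries bile acids, steroid conjugates and drugs. Its lowest, median and highest levels were 9.76, 12 and 26.1 CPM in LPS mice labelled Abca7, against 50.6, 52.9 and 56.8 CPM in unstimulated mice with that label. In control mice they were 9.69, 11.1 and 13.3 CPM under LPS, against 48.4, 51.2 and 60.4 CPM without. No LPS library reached any unstimulated one, and the single value of 26.1 CPM was that of replicate 4, the library with the weakest response of the LPS genes. Across the 12 LPS libraries, Slco1a4 and the mean log2 CPM of the LPS genes had a Pearson correlation of -0.77. That correlation was 0.43 once LPS replicates 4 and 6 with the Abca7 label, the 2 farthest from the median response, were left out. The log2 fold change was -1.88 ± 0.16 (SE, edgeR adjusted p = 4.61e-10) with the Abca7 label and -2.23 ± 0.16 (adjusted p = 1.38e-11) in controls. Without replicate 4 the fall with the Abca7 label was -2.13 on the log2 scale (adjusted p = 7.97e-15).

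Slco1c1 (chr6:141524386-141570177, plus strand) encodes Oatp1c1, the carrier of thyroxine into the brain, and lies on the same chromosome as Slco1a4. Its levels ran from 25.8 to 39.4 CPM with a median of 29.8 in LPS mice labelled Abca7, against 44.2 to 56.9 CPM with a median of 48.9 in unstimulated ones, and from 26.9 to 32.7 CPM (median 28.3) against 46.4 to 52.1 CPM (median 48.6) in controls. The groups did not overlap with either label, and again the highest LPS value, 39.4 CPM, was that of replicate 4. The fall was smaller than that of Slco1a4, with log2 fold changes of -0.69 ± 0.08 with the Abca7 label and -0.76 ± 0.08 in controls (SE, edgeR adjusted p = 1.46e-07 and 1.87e-08).

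Slc22a8 (chr19:8591254-8611834, plus strand) encodes OAT3, which exports organic anions from brain fluid. It was at 4.05 to 8.10 CPM (median 7.06) in LPS mice labelled Abca7 and 12.7 to 15.7 CPM (median 14.2) in unstimulated ones, and at 4.85 to 7.21 CPM (median 6.24) in LPS controls and 12.5 to 16.4 CPM (median 13.9) in unstimulated controls. In each case the highest LPS library lay well below the lowest unstimulated one. Its log2 fold change was -1.11 ± 0.13 with the Abca7 label and -1.22 ± 0.13 in controls (SE, edgeR adjusted p = 1.63e-07 and 2.23e-08). Markers of meningeal fibroblasts, another site of OAT3, moved the same way: 7 of 12 fell and 1 rose with each label, among them Slc22a6 (-1.08 and -1.53) and Slc6a13 (-0.94 and -1.07, log2 fold changes with the Abca7 label and in controls). Their summed level was 51.9 to 91.6 CPM against 86.6 to 101 CPM with the Abca7 label and 65.8 to 81.7 CPM against 92.3 to 103 CPM in controls, none of the 12 was at 0, and their part in the Slc22a8 result was not tested.

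Both ABC efflux pumps fell. Abcb1a (chr5:8660077-8748575, plus strand) encodes P-glycoprotein of brain vessels, the pump that keeps many drugs out of the brain. Its levels were 13.1 to 21.7 CPM (median 16.7) in LPS mice labelled Abca7 against 30.7 to 35.1 CPM (median 34.5) in unstimulated ones, and 14.5 to 21.8 CPM (median 15.6) in LPS controls against 31.4 to 38.3 CPM (median 35.5) in unstimulated controls. Both LPS groups lay below the whole unstimulated range. The pump gene was 1.95-fold lower with the Abca7 label and 2.08-fold lower in controls, with log2 fold changes of -0.97 ± 0.09 and -1.06 ± 0.09 (SE, edgeR adjusted p = 7.75e-09 and 9.62e-10). Of the 50-base stretches of its transcripts, 22.53% also occur in transcripts of other genes, mainly its paralog Abcb1b, so some reads may have been dropped or assigned to the wrong one of the pair.

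Abcg2 (chr6:58584523-58692869, plus strand), the breast cancer resistance protein, is the partner pump of P-glycoprotein on the blood-facing membrane. It fell less: its levels were 9.64 to 13.9 CPM (median 11.1) in LPS mice labelled Abca7 against 16.1 to 18.5 CPM (median 17.3) in unstimulated ones, and 10.3 to 13.4 CPM (median 12) in LPS controls against 15.9 to 18.0 CPM (median 17.0) in unstimulated controls. The unstimulated groups were tight, with a coefficient of variation of 5.0% and 4.0%, and no LPS library reached them. On the log2 scale the change was -0.58 ± 0.07 with the Abca7 label and -0.50 ± 0.07 in controls (SE, edgeR adjusted p = 1.07e-06 and 7.75e-06). When the 5 unstimulated controls low in Ttr were left out, the value in controls was -0.42 ± 0.15 and did not pass (adjusted p = 0.136). That fit sets the LPS controls against 1 unstimulated control, which is assumed to vary like the other groups, so its wider error bears on each value given from it.

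Among the nutrient carriers, the amino acid transporter fell most clearly. Slc7a5 (chr8:121881150-121907694, minus strand) encodes LAT1, which carries large neutral amino acids, L-DOPA and thyroid hormone. It was at 33.9 to 50.1 CPM (median 38.5) in LPS mice labelled Abca7 against 62.8 to 78.3 CPM (median 65.5) in unstimulated ones, and at 34.8 to 47.9 CPM (median 38.4) in LPS controls against 60.9 to 74.8 CPM (median 64.4) in unstimulated controls. All LPS libraries lay below all unstimulated ones with each label. The log2 fold change was -0.76 ± 0.08 with the Abca7 label and -0.71 ± 0.08 in controls (SE, edgeR adjusted p = 8.99e-08 and 2.26e-07).

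Slc38a5 (chrX:8271133-8280179, plus strand) encodes SNAT5, a carrier of glutamine and other neutral amino acids, and was by far the least abundant member, with 35 to 151 reads per library. It was at 0.741 to 1.71 CPM (median 0.855) in LPS mice labelled Abca7 against 1.04 to 2.51 CPM (median 1.29) in unstimulated ones, and at 0.624 to 1.03 CPM (median 0.709) in LPS controls against 1.05 to 2.61 CPM (median 1.81) in unstimulated controls. The control groups did not overlap, though their nearest libraries were close, while the groups with the Abca7 label overlapped through LPS replicates 1 and 4, at 1.09 and 1.71 CPM. The fall passed the threshold in controls (log2 fold change -1.22 ± 0.24, SE, edgeR adjusted p = 0.000416) and missed it with the Abca7 label (-0.57 ± 0.24, adjusted p = 0.130). Without replicate 4 the value with that label was -0.78 and passed (adjusted p = 0.0211). The difference between the LPS effects was 0.64 with an interval of -0.05 to 1.33 on the log2 scale and did not pass (edgeR interaction, adjusted p = 1.0).

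Slc2a1 (chr4:119108711-119137330, plus strand) encodes GLUT1, the glucose transporter of the barrier, and had the highest level of the 10. It was at 85.9 to 116 CPM (median 97.8) in LPS mice labelled Abca7 against 91.2 to 159 CPM (median 132) in unstimulated ones, and at 85.4 to 101 CPM (median 94.9) in LPS controls against 106 to 139.9 CPM (median 127) in unstimulated controls. The control groups stood apart by a small gap, and those with the Abca7 label overlapped through 1 unstimulated library, replicate 1 at 91.2 CPM. The log2 fold change was -0.38 ± 0.10 with the Abca7 label and -0.41 ± 0.10 in controls (SE, edgeR adjusted p = 0.00776 and 0.00281). In controls the call ended with the Ttr level as a covariate (-0.36, adjusted p = 0.15). Against the 1 unstimulated control not low in Ttr the value was -0.29 ± 0.18 (SE, adjusted p = 0.523), an arm of a single library. The transcript Gm12868 overlaps Slc2a1 on the opposite strand over 105 exonic bases; it had 339 to 801 reads per library, 8.8% of those of Slc2a1, and with the strand setting of the counting not given the reads of the pair cannot be told apart.

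Slc16a1 (chr3:104638668-104658462, plus strand) encodes MCT1, the carrier of lactate and ketone bodies. Its levels were 18.8 to 26.1 CPM (median 23.3) in LPS mice labelled Abca7 against 19.5 to 29.7 CPM (median 25.8) in unstimulated ones, and 24.4 to 27.4 CPM (median 25.3) in LPS controls against 20.9 to 33.2 CPM (median 25.1) in unstimulated controls. The groups overlapped almost entirely. The log2 fold change was -0.12 with a 95% interval of -0.33 to 0.09 in mice labelled Abca7 and -0.03 with an interval of -0.24 to 0.18 in controls (edgeR adjusted p = 0.539 and 0.890). The value in controls depended on Ttr. With the Ttr level as a covariate it was -0.23 ± 0.14 and did not pass (SE, edgeR adjusted p = 0.409). Against the 1 unstimulated control not low in Ttr it was -0.39, with a single library in that arm. The unstimulated groups varied more than the LPS groups, with coefficients of variation of 10.6% and 4.4% under LPS and 17.0% and 17.8% without, in mice labelled Abca7 and controls in that order.

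Mfsd2a (chr4:122946850-122961188, minus strand) encodes the carrier of lysophosphatidylcholine with docosahexaenoic acid, which also keeps vesicular transport low in brain endothelium. It was the sole member called higher under LPS, and in controls only. Its levels were 26.7 to 31.1 CPM (median 28.9) in LPS mice labelled Abca7 against 19.5 to 31.1 CPM (median 27.2) in unstimulated ones, and 26.3 to 33.7 CPM (median 30.6) in LPS controls against 20.5 to 29.1 CPM (median 24.4) in unstimulated controls. The groups overlapped with both labels. The log2 fold change was 0.10 ± 0.09 with the Abca7 label (SE, edgeR adjusted p = 0.570) and 0.30 ± 0.09 in controls (adjusted p = 0.0238). With age as a factor in the fit the value in controls was 0.32 ± 0.08 (adjusted p = 0.00594). At 56 days the control means were 31.5 CPM under LPS and 21.4 CPM without (n = 3 each, no overlap), while at 55 days they were 26.5 and 28.2 CPM (n = 2 each), in the other direction. Against the 1 unstimulated control not low in Ttr the value was 0.49 ± 0.17 (adjusted p = 0.121), again with a single library in that arm. The call ended with the Ttr level as a covariate (0.27, adjusted p = 0.324) and without any one of 6 control libraries (LPS replicates 3, 4 and 5 and unstimulated replicates 1, 2 and 3; adjusted p 0.0506 to 0.0754).

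**Figure D2:**
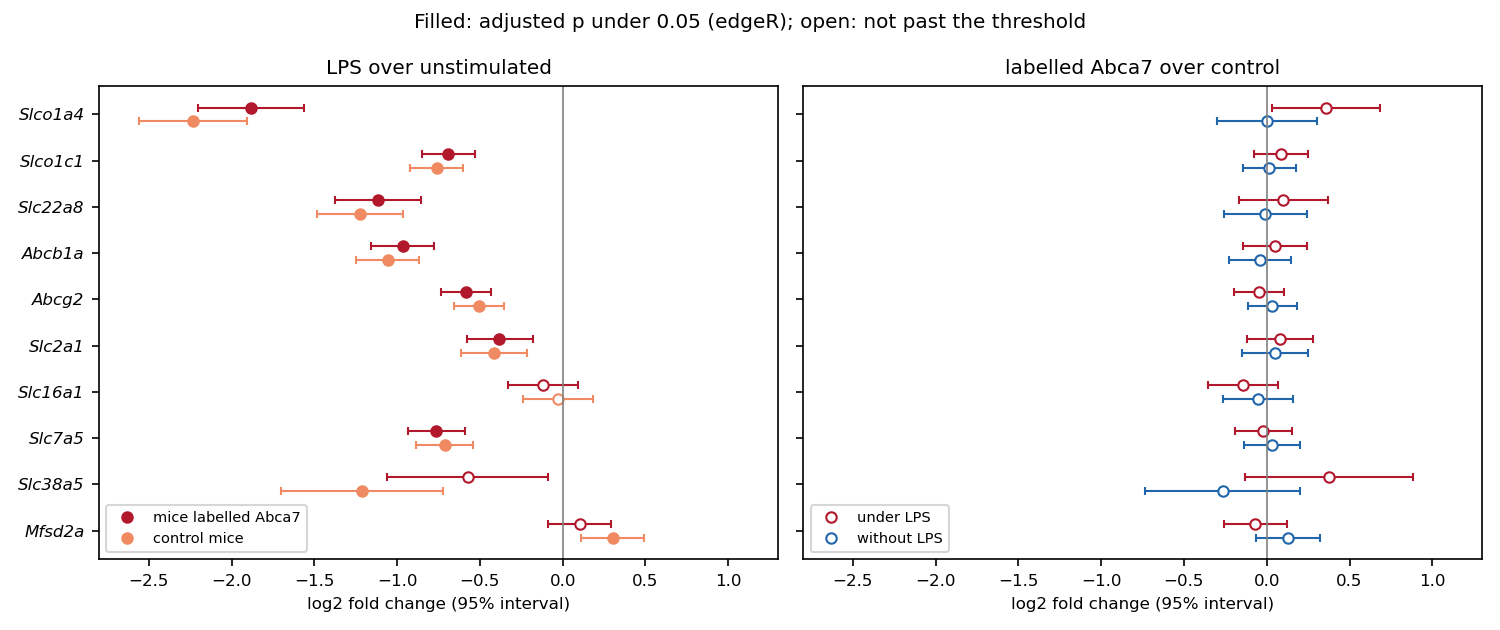
Log2 fold changes of the 10 genes with 95% intervals from the edgeR fit, for LPS over unstimulated (left panel) and for the Abca7 label over control (right panel); filled points passed an adjusted p of 0.05 and open points did not. LPS points of 7 genes with the Abca7 label and 8 in controls are filled and left of 0, Mfsd2a in controls is filled and right of 0, and every genotype point is open.

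Libraries were fully separated for most of the members. Every LPS library was below every unstimulated one for 6 members in mice labelled Abca7, where 2.24% of all tested genes had that pattern, and for 8 members in control mice, where 3.69% did. The LPS groups included ages that the unstimulated groups did not, so the values were also compared within 1 age. At 55 days, 8 members were lower without overlap with the Abca7 label (2 LPS and 3 unstimulated mice), where 16.4% of all tested genes were, and 9 in controls (2 and 2), where 22.5% were. The 9 in controls included Mfsd2a, which the fit over all ages called higher there. At 56 days 9 were lower with the Abca7 label, where 37.6% of all tested genes were, with 2 mice against 1. In controls of 56 days (3 and 3) 8 members and 13.2% of all tested genes were lower without overlap. Slco1a4, Slco1c1, Slc2a1, Abcb1a, Abcg2, Slc7a5, Slc22a8 and Slc38a5 were among them in all 4 comparisons. Slc16a1, which the fit over all ages called with neither label, was among them at 56 days with the Abca7 label only.

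No member passed the threshold between genotype labels. Under LPS, 0 of the 10 passed the threshold for Abca7 label against control, where 0% of all tested genes did (edgeR; 1 member, Slco1a4, had an unadjusted p under 0.05, as did 1748 of all tested genes, and DESeq2 called 0 members and 5 genes). Without LPS, 0 of the 10 passed, where 0.032% of all genes did (0 members and 1426 genes with an unadjusted p under 0.05; DESeq2 called 0 members and 24 genes). Log2 differences over the 10 ran from -0.14 (Slc16a1) to 0.38 (Slc38a5) under LPS and from -0.27 (Slc38a5) to 0.13 (Mfsd2a) without. For Slco1a4 the difference under LPS was 0.36 ± 0.16 (SE, edgeR adjusted p = 0.588) and became 0.11 ± 0.10 (adjusted p = 0.808) when replicate 4 of the LPS mice labelled Abca7 was left out. The 95% intervals cover the spread of libraries only. For Slco1c1, Slc2a1, Abcb1a, Abcg2 and Slc7a5 both lay between -0.23 and 0.28. The widest were those of Slc38a5, up to 0.88 under LPS and down to -0.73 without. The unstimulated groups also differed in Ttr, with a mean log2 CPM of 7.98 with the Abca7 label and 4.14 in controls (exact permutation p = 0.00649, n = 6 per group). When the Ttr level was a covariate, 0 of the 10 members passed without LPS, and 1 of 21891 tested genes was higher and 2 lower. The cause of the Ttr difference was not tested.

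The difference between the LPS effects of the labels was tested as an interaction. It passed the threshold for 0 of the 10 members, where 0% of all tested genes did (edgeR; 0 members and 745 genes with an unadjusted p under 0.05; DESeq2 called 0 members and 0 genes). The largest interaction values were those of Slc38a5 (0.64) and Slco1a4 (0.35), and without replicate 4 they were 0.44 and 0.10. That library had the highest level of its group for 6 of the 10 members (Slco1a4, Slco1c1, Slc22a8, Abcb1a, Abcg2 and Slc38a5) and the lowest for none. Without it, 8 members fell with the Abca7 label, the 7 above and Slc38a5. Over all tested genes, 1313 of 22104 fell with that label without replicate 4, and 1135 of 21891 with it.

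Expressed per kilobase of the length given in the table, the transporters stood in the same order in unstimulated mice of both labels and in another under LPS. In unstimulated controls Slc2a1 had the highest level, 44.1 ± 4.96 CPM per kilobase (SD, n = 6). It was followed by Slc7a5 (17.7 ± 1.43), Slco1c1 (15.5 ± 0.651), Slco1a4 (13.7 ± 1.22) and Mfsd2a (10.9 ± 1.59), each of which overlapped or met its neighbour in range. The lower levels were those of Abcb1a (6.38 ± 0.425), Slc16a1 (5.88 ± 1.05), Slc22a8 (4.08 ± 0.427), Abcg2 (3.40 ± 0.135) and Slc38a5 (0.799 ± 0.239). Abcb1a and Slc16a1 overlapped, as did Slc22a8 and Abcg2. Under LPS, Mfsd2a ranked 2 of 10 (12.8 ± 0.651 with the Abca7 label, 13.4 ± 1.46 in controls), and Slco1a4 ranked 6 with the Abca7 label (3.75 ± 1.63) and 7 in controls (2.92 ± 0.353), where its range overlapped that of Abcb1a (3.07 ± 0.488). With exonic lengths of the GENCODE M21 annotation, Mfsd2a instead ranked 3, ahead of Slco1c1 and Slco1a4, in unstimulated controls, and Slco1a4 ranked 7 in both LPS groups.

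For 3 members a gene closely tied to their function was measured in the same libraries. Slc3a2 encodes the heavy chain that LAT1 needs to reach the membrane, Bsg encodes basigin, the chaperone of MCT1, and Abcb1b is the paralog of Abcb1a. Slc3a2 was at 79.9 to 95.3 CPM in LPS mice labelled Abca7 against 77.0 to 84.6 CPM in unstimulated ones and at 81.9 to 92.7 CPM in LPS controls against 76.6 to 87.8 CPM in unstimulated controls, and it did not pass (log2 fold change 0.08 and 0.11, edgeR adjusted p = 0.234 and 0.0686). The log2 ratio of Slc7a5 to Slc3a2 was therefore lower under LPS, -1.13 ± 0.147 against -0.28 ± 0.099 with the Abca7 label and -1.13 ± 0.148 against -0.30 ± 0.065 in controls (SD, n = 6 each). Abcb1b was at 3.03 to 5.16 CPM against 3.05 to 4.45 CPM with the Abca7 label and at 3.55 to 5.40 CPM against 3.27 to 3.96 CPM in controls, and its log2 fold changes of 0.11 and 0.25 did not pass (adjusted p = 0.608 and 0.138). The log2 ratio of Abcb1a to Abcb1b was 2.13 ± 0.306 against 3.22 ± 0.154 with the Abca7 label and 1.99 ± 0.167 against 3.29 ± 0.089 in controls. Of the 50-base stretches of Abcb1b transcripts, 12.82% also occur in other genes, mainly Abcb1a. Reads of the more abundant Abcb1a may thus be counted for Abcb1b, and the part of this in the ratio was not tested. Libraries did not overlap for either ratio, and each of these 4 comparisons gave the smallest p that 6 against 6 allow (exact permutation p = 0.00216, 0.00648 after adjustment over 12 ratio tests chosen after the values were seen). Slc7a5 and Abcb1a alone already separated these groups, so the p-values of the ratios are not further evidence of a fall. Bsg fell with both labels (-0.25 and -0.18, edgeR adjusted p = 6.82e-06 and 0.000383), and the ratio of Slc16a1 to Bsg did not pass for LPS (differences of 0.14 and 0.17, exact permutation p = 0.290 and 0.121). Under LPS that ratio was lower with the Abca7 label, -3.10 ± 0.175 against -2.93 ± 0.06 in controls (SD, n = 6 each), and missed the threshold after adjustment (exact permutation p = 0.0238, adjusted 0.0571).

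**Figure D3:**
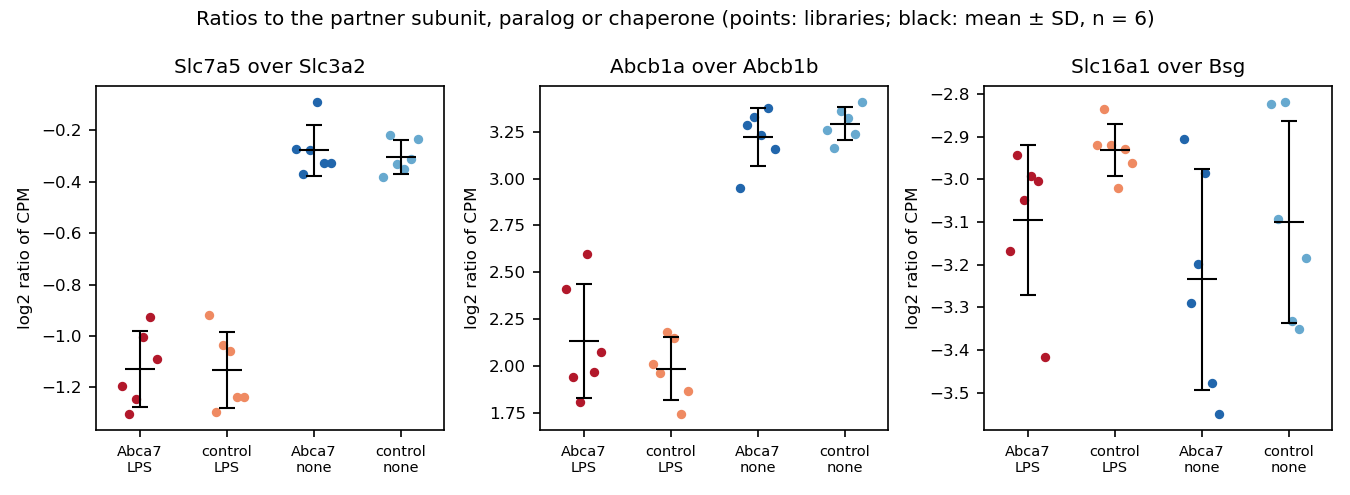
Log2 ratio of CPM, per library, of Slc7a5 over its partner chain Slc3a2, of Abcb1a over its paralog Abcb1b and of Slc16a1 over its chaperone Bsg; groups run from LPS mice labelled Abca7 on the left to unstimulated controls on the right, points are libraries, black bars are mean and SD of 6, and the axes do not start at 0. The LPS libraries lie below the unstimulated ones for the first pair of ratios and overlap them for Slc16a1 over Bsg.

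Of 37 further carriers, partner chains and transport receptors of brain endothelium, 9 fell and 1 rose with the Abca7 label, and 10 fell and 2 rose in controls, with a median log2 fold change of -0.03 and -0.01. Slc40a1, the iron exporter ferroportin, fell most (-1.49 and -1.75, with the Abca7 label and in controls, edgeR adjusted p = 4.65e-09 and 1.81e-10). Slco2b1, another organic anion carrier (-0.57 and -0.85), Atp10a, a phospholipid flippase (-0.75 and -0.53), Slc19a3, a thiamine carrier (-0.50 and -0.42), Slc6a6, the taurine carrier (-0.22 and -0.26), and Lrp8, a lipoprotein receptor (-0.10 and -0.16), fell as well. Slc39a14, a zinc and iron importer, rose (0.37 and 0.48). Whether the 10 members moved more often than these 37 was not tested, since the members were chosen with earlier results of these libraries known.

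**Figure D4:**
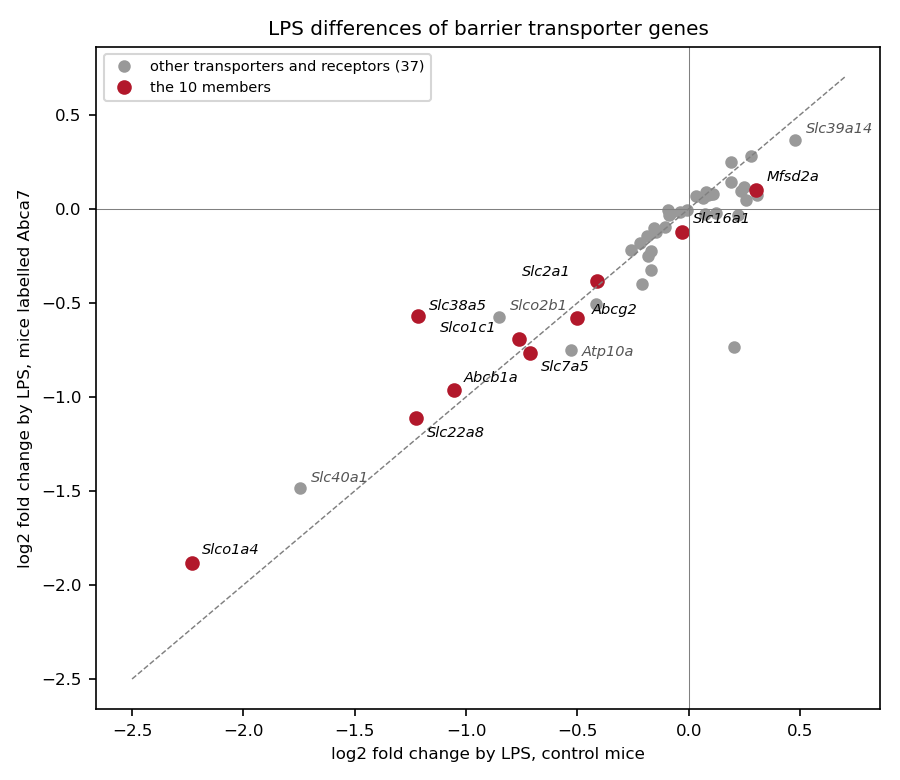
Log2 fold change by LPS in mice labelled Abca7 (vertical axis) against that in control mice (horizontal axis) for the 10 members (red) and 37 other barrier transporters, partner chains and receptors (grey); the dashed line marks equal values. Slco1a4 and Slc40a1 lie farthest to the lower left, Slc16a1 and most grey points lie near 0, and Slc38a5 lies above the line.

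The vessel context was mixed. Endothelial markers other than transporters went both ways: of 20, 12 fell and 5 rose with each label. The angiopoietin receptor gene Tek (-1.55 and -1.86), the tight junction gene Cldn5 (-1.78 and -1.49) and the phosphatase gene Ptprb (-1.22 and -1.26) fell, while the junction gene Cdh5 (1.13 and 1.41) and Pglyrp1 (1.05 and 1.34), a peptidoglycan recognition gene, rose. Their summed level was 368 to 427 CPM under LPS against 455 to 512 CPM without in mice labelled Abca7, and 381 to 407 CPM against 460 to 482 CPM in controls, and no marker was at 0. Pericyte markers fell for 3 of 10 with the Abca7 label and 4 of 10 in controls, among them Anpep (-1.32 and -1.44), with none higher. Caveola genes, which serve vesicular transport, fell for 5 of 8 and rose for 1 with each label, including Cav1 (-0.84 and -0.78), Cavin2 (-0.81 and -0.81) and Ehd2 (-0.90 and -0.85). Of 24 genes of the Wnt pathway and transcription factors that set barrier identity, 15 fell and 1 rose with the Abca7 label and 17 fell and 1 rose in controls. Sox17 (-2.71 and -3.06), Sox18 (-2.65 and -2.84), the Wnt feedback gene Notum (-1.88 and -1.92) and the Wnt receptor gene Fzd6 (-1.26 and -0.90) fell, and Sox7 rose (0.99 and 1.19). The part of these shifts in the transporter results was not tested.

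Markers of other cell types were read in the same fit. Of 12 choroid plexus markers, 0 rose and 0 fell under LPS with the Abca7 label, with a summed level of 222 to 822 CPM under LPS and 252 to 935 CPM without (edgeR; 0 at an unadjusted p under 0.05 and 0 by DESeq2). In controls 10 of the 12 rose, with a summed level of 451 to 1020 CPM under LPS and 211 to 643 CPM without, and none was at 0. The median log2 fold change of the choroid plexus markers with the Abca7 label was -0.31. When the Ttr level was a covariate, the 7 members that fell with that label were called lower again. Their log2 fold changes ran from -1.89 (Slco1a4) to -0.39 (Slc2a1), and 1300 of 21891 tested genes fell and 1639 rose. The part of the other choroid plexus markers in the 7 falls was not tested. With the Ttr level as a covariate, 7 members fell and 0 rose in controls, where 649 of 21891 tested genes fell and 977 rose. The count lost Slc2a1 in that fit. Against the 1 unstimulated control not low in Ttr, the log2 fold changes of Slc2a1 and Abcg2 were -0.29 and -0.42. Astrocyte markers rose for 2 of 12 with the Abca7 label and 5 of 12 in controls, led by Gfap (0.74 and 0.96), and microglial markers fell for 7 of 10 with each label and rose for 2 with the Abca7 label and 1 in controls. Of 10 neuron markers 0 passed with either label (edgeR; 1 higher and 1 lower at an unadjusted p under 0.05 with the Abca7 label, 1 higher and 2 lower in controls; 0 by DESeq2). Oligodendrocyte markers rose for 0 of 10 with the Abca7 label (edgeR; 2 at an unadjusted p under 0.05 and 1 by DESeq2) and for 1 of 10 in controls. Blood leukocyte markers rose for 4 and 3 of the 6 that could be tested, at a summed level of 2.20 to 3.51 CPM under LPS against 1.33 to 1.80 CPM without in mice labelled Abca7 and 2.90 to 4.78 CPM against 1.44 to 2.09 CPM in controls.

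The genes whose pattern over the 24 libraries lay nearest to each member were found by the root-mean-square difference in log2 CPM, each gene taken relative to its mean in unstimulated controls, over 15051 genes. Slco1a4 was nearest to Hspa12b and Gpr34 (0.24 each), Slc22a8 to Ptprb (0.17) and Slc6a13 (0.20), and Abcb1a to Abca9 (0.16) and Stab1 (0.17). Slco1c1 was nearest to Fmnl3 (0.12) and Phf21b (0.13), Abcg2 to Spred2 (0.12) and Cped1 (0.13), and Slc7a5 to Fcgrt (0.12) and Ptrf, the table's name for Cavin1 (0.14). For Slc2a1 the nearest was the overlapping Gm12868 (0.06), which may share its reads, and next Selplg (0.15). For scale, these 7 members themselves lay between 0.32 (Slc2a1) and 1.51 (Slco1a4) from their unstimulated control mean, and the other 3 were not compared in this way.

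The start-site windows printed above hold very different numbers of CG dinucleotides: 1 for Slco1a4, 1 for Slc22a8, 22 for Mfsd2a and 42 for Slc16a1. Of the remaining members with a window, Slco1c1 has 1, Abcb1a 2, Slc38a5 10, Slc2a1 18, and Abcg2 3, 10 and 28 in its 3 windows. The start site of the Abcb1a window lies upstream of the gene start in the count table, at -92986 bases from it, and whether it is in use in these libraries was not tested. That of Slc22a8 lies 1928 bases inside its gene. Members with at most 2 CG dinucleotides (Slco1a4, Slc22a8, Abcb1a and Slco1c1) had log2 fold changes of -1.88 to -0.69 with the Abca7 label and -2.23 to -0.76 in controls, and members with 18 or more in their single window (Slc2a1, Mfsd2a and Slc16a1) had -0.38 to 0.10 and -0.41 to 0.30. The 2 members outside this grouping were Slc38a5, with 10, at -0.57 and -1.22, and Abcg2, with its 3 windows, at -0.58 and -0.50. The grouping was seen after the values were known and is a description of 9 genes with no test. Over the 10583 tested genes with 1 window it was not general: of genes with 3 or fewer CG dinucleotides, 4.91% fell with the Abca7 label and 6.08% in controls, against 5.78% and 9.18% of genes with 15 or more. Genes that fell by over 1 on the log2 scale did have few, with a median of 6.5 (70 genes) and 7.5 (86 genes), against 19.0 among genes that did not pass. Rises were more frequent among genes with 3 or fewer (11.8% with the Abca7 label, 13.9% in controls) than with 15 or more (6.16% and 9.2%). Genes that rose by over 1 were not counted in this way.

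**Figure D5:**
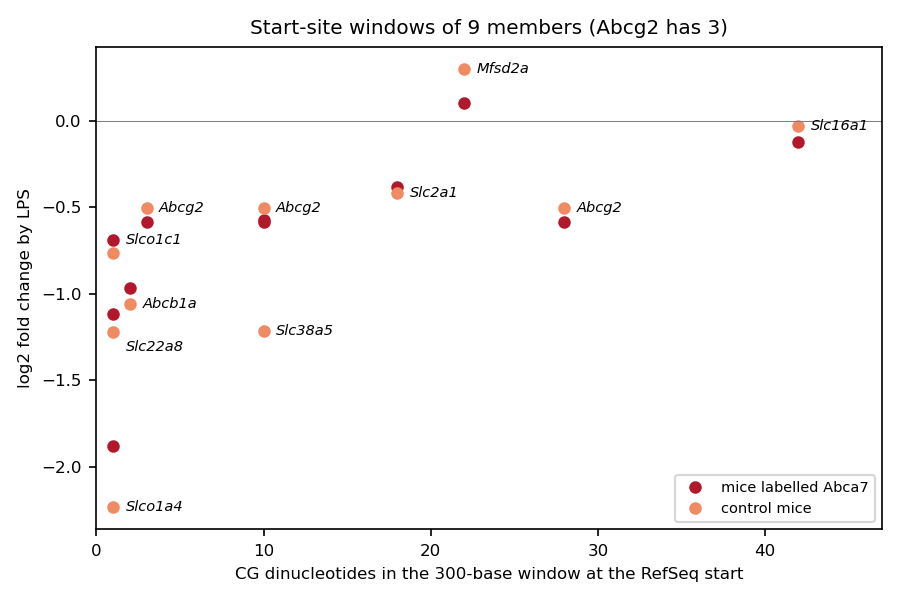
Log2 fold change by LPS (vertical axis) of the 9 members with a RefSeq start-site window against the number of CG dinucleotides in the 300-base window (horizontal axis), in mice labelled Abca7 (dark red) and control mice (orange); Abcg2 appears at 3 positions because it has 3 windows. Members with 1 or 2 CG dinucleotides lie between -2.23 and -0.69, and Slc16a1 and Mfsd2a, at 42 and 22, lie between -0.12 and 0.30. Slc38a5, at 10, lies at -0.57 and -1.22, and Abcg2, at 3, 10 and 28, lies at -0.58 and -0.50.

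Short motifs were searched on both strands of the same windows. The Sox core ACAAT occurs 3 times in the Slco1a4 window, with first bases at -208, -144 and -137 from the start, and in 1 window of Abcg2, against 31% of all 32851 windows. The LEF/TCF core TCAAAG of Wnt signalling occurs in the windows of Mfsd2a and Abcb1a, the distant one named above, against 16% of all windows. The NF-kB motif GGGANTTTC (1.11% of all windows) and the ETS core CCGGAA (14.9%) occur in none of the windows of the 9 members. The hypoxia response core ACGTG (19.6%) was found for 5 members and the xenobiotic response core GCGTG (32.4%) for 4. A run of CACGTG counts as a match of ACGTG on each strand. A match describes these letters in this window only.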

How the data were processed

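The table the authors deposited holds unnormalized read counts for each gene in 24 cortex libraries, together with gene coordinates and lengths. Per the series text, libraries were sequenced on a HiSeq 4000 and counted with MAP-RSeq 2.1.1, and STAR 2.5.2b and the build mm10 are named in the submitters' processing notes. No annotation release or strand setting is named in the sources used here. Columns of per-sample values that match no library: 0.

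Genes were filtered with filterByExpr by group and scaled with TMM factors, and all 24 libraries entered 1 fit with a coefficient per group in edgeR 4.0.16 (R 4.3.3, quasi-likelihood F test, Benjamini-Hochberg over the 21891 genes kept, threshold 0.05, two-sided). The scripts were tested on simulated data. Single values were compared by exact permutation, whose smallest p with 6 against 6 is 0.00216. Alternatives were DESeq2 1.42.0, its size factors, no filter, age as a factor, Ttr as a covariate, 5 surrogate variables (sva 3.50.0), and each library left out. Leaving out the 5 unstimulated controls low in Ttr was chosen after seeing the data. Replicate numbers follow the order of the series and only name libraries. Each library has its own title, taken as 1 animal; if that is wrong, p-values measure a technical spread.

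The members, the lists and the alternatives were chosen with earlier results of these data known. Genes outside the 10 were named by rule: those past the threshold in both LPS contrasts with the largest mean absolute log2 fold change, at most 10 of the other transporters, 5 of the endothelial and the Wnt and transcription factor lists and 3 of each other list, plus partner genes and, per member called in both, the 2 genes nearest in pattern. The CG comparison was made after the values were seen. Start-site windows are from RefSeq (GRCm38.p6), which gave one or more for 9 of the 10 members. Overlaps and shared sequence are from GENCODE M21. The 4 symbols absent from the table were matched by gene identifier.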

Additional observations from a re-analysis of the deposited data

Results flagged for a closer look

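Within each group of 6 libraries, the highest and lowest log2 CPM of each member were compared with the rest, 40 groups in all, and chance flags about 1 in 20 groups. For Abcb1a, replicate 3 of the unstimulated mice labelled Abca7, at 30.7 CPM, lay far below the other 5 libraries of its group. For Slc7a5, replicate 4 of the unstimulated mice labelled Abca7, at 78.3 CPM, lay far above the other 5. The cause was not tested in either case, and the LPS calls of both genes held without each of these libraries.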

How the results depend on the processing

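Over 31 alternatives, 6 to 8 members fell with the Abca7 label and 6 to 8 in controls, 0 rose with the Abca7 label, and 0 passed for genotype or interaction. The 1 member called higher in controls, Mfsd2a, was not called (0 higher) with the Ttr covariate, with surrogate variables and without the 5 unstimulated controls low in Ttr, and the count ranged from 0 to 1 when 1 library was left out. With surrogate variables Slc2a1 was lost with both labels (-0.34, adjusted p = 0.103, with the Abca7 label and -0.33, adjusted p = 0.123, in controls). With age as a factor Slc38a5 passed with the Abca7 label (-0.87, adjusted p = 0.0097). Over all genes, LPS calls in controls were 2056 higher and 1734 lower, against 1116 and 720 with surrogate variables, 977 and 649 with the Ttr covariate and 652 and 389 without the 5 controls, which leaves 1 unstimulated control. With the Abca7 label they were 1456 and 1135, against 817 and 453 with surrogate variables. Genotype calls without LPS were 3 higher and 4 lower, against 53 and 42 with surrogate variables, 34 and 15 with age as a factor, 12 and 12 by DESeq2 and 31 and 7 without the unstimulated control replicate 1. The cause was not tested. No paired analysis was possible because the labels give no replicate numbers. Slc38a5, with the fewest reads, has the widest intervals.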
